A study of Mus musculus with 30 samples.

Results

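Socs1, Socs2, Socs3 and Cish encode intracellular suppressors of cytokine signalling. They were taken as all probe sets whose only annotated gene symbol was one of these 4 names, which gave 5 probe sets, of 12422 probe sets and 8251 genes measured in all. Socs2 (99475_at), Cish (100022_at) and Socs1 (92832_at) had 1 probe set each. Socs3 had 2, and 162206_f_at, which had the higher mean over the arrays, stands for the gene below unless 92232_at is named. The suffix f in 162206_f_at marks a probe set with probes shared within a family of similar sequences, so its level is less certain than that of 92232_at.

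The study measured sorted CD4+ T cells on 30 one-colour MG-U74Av2 arrays, and its title sets regulatory T cells (Treg) of the pancreas against effector T cells (Teff). All cells came from mice of the diabetes-prone NOD strain carrying the BDC2.5 T cell receptor transgene, which gives most CD4+ T cells a receptor for an islet antigen. Pancreas set 1 held cells of mice given rat IgG, with 3 arrays of Treg cells sorted as CD4+CD25+CD69- and 5 of Teff cells sorted as CD4+ with low or no CD25 and CD69 of either kind, and the labels of this set give no age. In pancreas set 2, mice aged 26 days had received antibody to the costimulatory receptor ICOS; their Treg cells were sorted as CD4+CD25+ and their Teff cells as CD4+CD25-, with 3 arrays each. That set also had 2 arrays of IgG Treg cells (CD4+CD25+CD69-), replicate 1 from mice aged 4 weeks and replicate 2 from mice aged 26 days. The lymph node set came from mice aged 4 weeks and held 5 arrays of CD25+ and 3 of CD25- cells from mesenteric nodes, and 3 of CD25+ and 3 of CD25- cells from peripheral nodes, all of them CD4+. The CD25+ and CD25- lymph node sorts are called by their gates, and Il2ra, which encodes CD25, was part of every sort. The labels do not say whether replicates were separate animals or pools, so each p-value rests on the spread among arrays, which may be technical.

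Cytokines that bind receptors coupled to Janus kinases (JAKs) cause STAT transcription factors to be phosphorylated and to enter the nucleus. Among the genes that STATs switch on are those of the SOCS family, whose proteins bind the activated receptor or its kinase through an SH2 domain and recruit a ubiquitin ligase through the SOCS box, and so form a negative feedback loop. In T cells, Cish and Socs2 are known as genes induced by interleukin 2 through STAT5, Socs1 limits signalling by interferon gamma and by cytokines of the common gamma chain, and Socs3 limits signalling through gp130, the receptor chain shared by the interleukin 6 family.

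Stretches of promoter are shown because the members are known as STAT targets and differed between sorts (Cish and Socs1) or between node sites (Socs3). RefSeq promoter windows of the mouse build GRCm38.p6, each 300 bases long with 250 bases before the start site, were found for 3 of the 4 genes; Socs2 is named only. The capitals mark matches to TTCNNNGAA, the palindromic core of a STAT site, in Cish and Socs3, and to GAAANNGAAA, an element bound by interferon regulatory factors (IRF), in Socs1. Both strands were searched, and each sequence reads 5′ to 3′ on the strand of its gene.
Cish, chr9:107296639-107296688, plus strand: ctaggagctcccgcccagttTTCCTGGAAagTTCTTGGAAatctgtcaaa
Socs1, chr16:10785584-10785639, minus strand: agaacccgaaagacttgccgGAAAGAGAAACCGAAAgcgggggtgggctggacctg
Socs3, chr11:117969492-117969540, minus strand: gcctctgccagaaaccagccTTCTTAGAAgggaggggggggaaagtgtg
The Cish window held 2 separate STAT matches from the start site on, a number that 0.457% of 32851 mouse promoter windows reached. The Socs1 window held 2 IRF matches that overlapped, and 0.225% of the windows held at least as many. It held no STAT match, and the Cish and Socs3 windows held no IRF match. The Socs3 window held 1 STAT match before the start site that the window used, and 8.3% of all windows held 1 or more. The annotated Socs3 gene, on the minus strand, begins at 117970336, so this match at 117969512 to 117969520 lay inside the annotated gene. These matches describe letters and say nothing about which factor was bound in these cells.

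Some arrays stood apart or went against their labels. Anti-ICOS Treg replicate 3 had a summed intensity of 559 over 10 measured Treg markers (Foxp3 had no probe set), against 2667 and 3537 in the other anti-ICOS Treg arrays and 556 to 733 in anti-ICOS Teff cells, so it is called the library labelled anti-ICOS Treg replicate 3 and each difference it enters is also given without it. Every peripheral node array carried a mesenteric tissue entry, and mesenteric CD25+ replicate 2 a CD25- source name; titles were followed, and its Il2ra level of 5.50 (log2) and Socs2 level of 8.99 lay with the CD25+ arrays. IgG Treg replicate 3 of set 1 and replicate 2 of set 2 carried 1 array number, 2298, and correlated at 0.997 across probe sets, against 0.988 for the next array. In set 1, 9 of 10 Treg markers passed the test upwards, where 3.93% of all probe sets did. The summed B cell markers were 614 to 803 in set 1 Treg cells, against 421 to 489 in Teff cells. The summed erythroid markers (2 of 4 measured) were 2312 to 2886 in set 1 Treg cells, against 471 to 2232 in Teff cells, and neither marker passed the test. The part of these cells in the set 1 differences was not tested. Replicate 1 of the set 2 IgG Treg cells stood apart, with a macrophage and dendritic cell sum of 892 and an erythroid sum of 10164. These were 158 to 225 and 98.9 to 2418 in anti-ICOS Treg cells, against 177 and 2917 in IgG Treg replicate 2, so differences from IgG Treg cells are also given without replicate 1. In peripheral nodes, CD25+ replicate 2 had an erythroid sum of 3051, against 145 and 224 in the other CD25+ arrays. CD25- replicate 2 had 1297, against 195 and 159. The B cell sums ran from 372 to 815 in peripheral CD25+ and from 365 to 654 in peripheral CD25- cells. The part of these cells in the node differences was not tested. Median array intensities were 32.5 to 34.5 in set 1, 27.9 to 29.8 in set 2 and 25.3 to 27.1 in the lymph node set. In the same units, the geometric mean of Socs2 was 39.4 in set 1 Teff, 33.3 in mesenteric CD25- and 29.3 in peripheral CD25- cells. Group means of Socs1 ran from 35.5 to 70.0 and those of 92232_at from 38.2 to 70.4. Their low values thus lay near the array medians, and how far this limited the differences was not tested.

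Levels are log2 intensities and were compared within a set. Differences were tested with limma, with Benjamini-Hochberg adjustment over 12422 probe sets and a threshold of 0.05. In set 1 Treg cells, 3 of the 5 probe sets (Socs2, Cish and Socs1) rose, where 3.93% of all probe sets did. In mesenteric CD25+ cells the same 3 probe sets rose, against 4.66% of all, and in peripheral CD25+ cells Socs2 and Cish rose, against 1.8% of all. Under anti-ICOS no member passed in limma for Treg against Teff cells, and 0% of all probe sets did, with 209 at an unadjusted p under 0.05. Between node sites, both Socs3 probe sets were higher in mesenteric than in peripheral CD25- cells, where 0.209% of all probe sets rose.

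**Figure D1:**
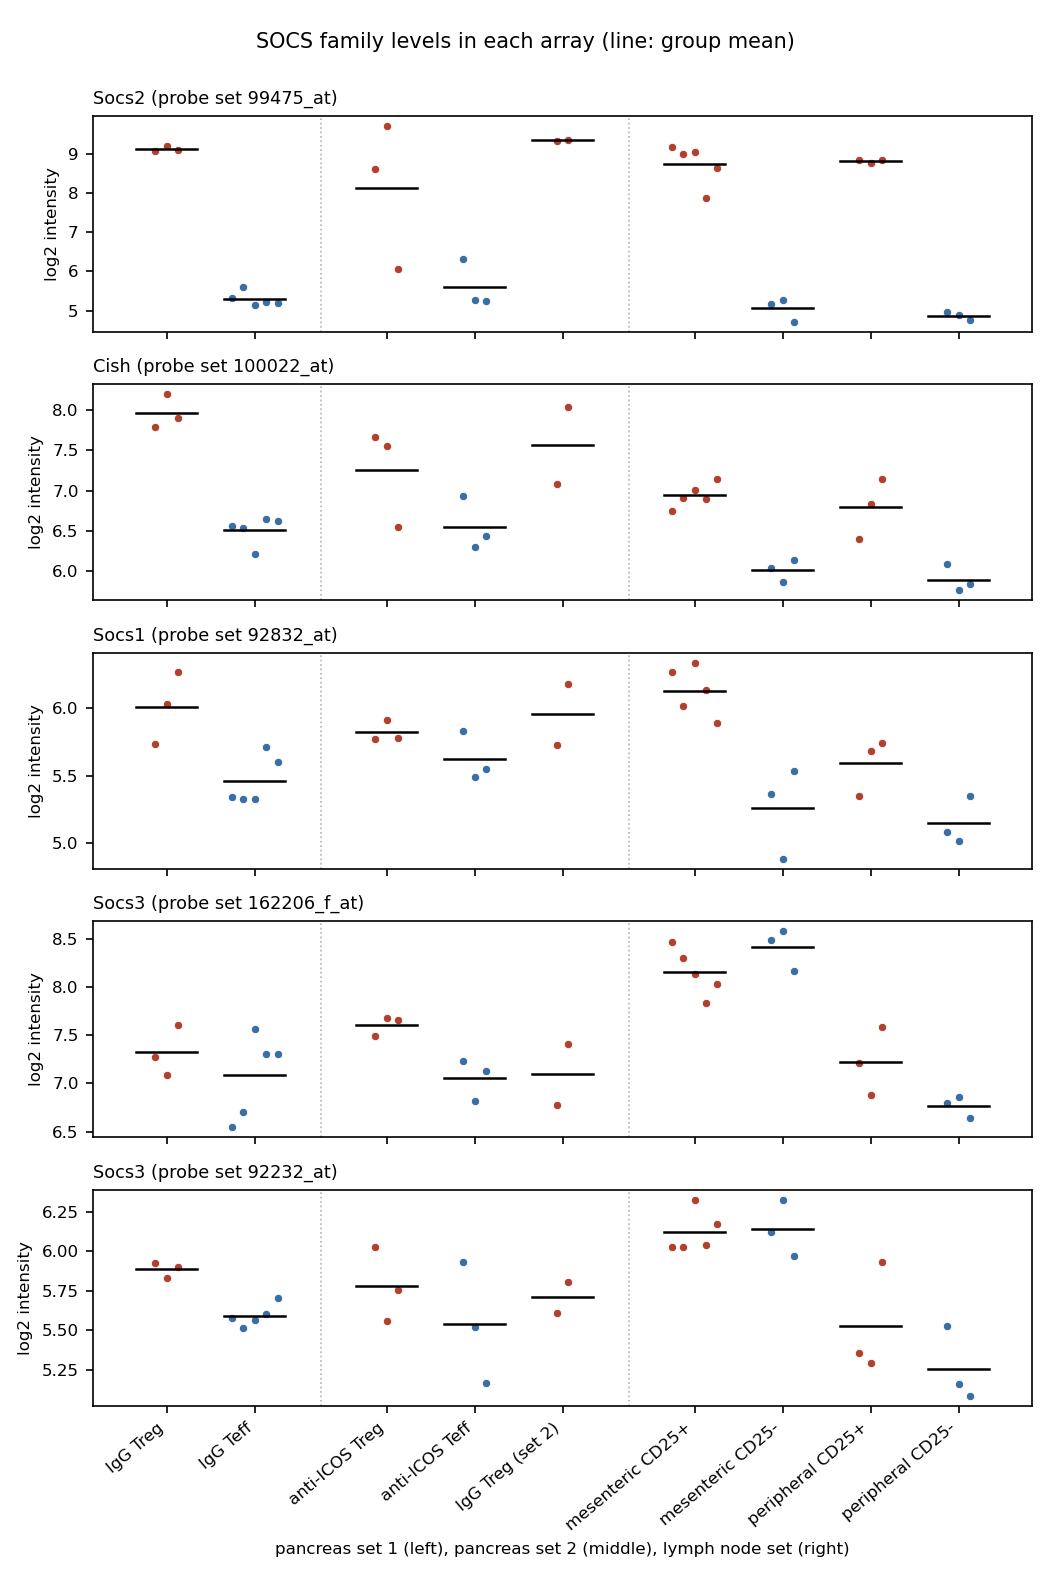
Log2 intensity of each SOCS family probe set in every array (points), by sorted group and set, with lines at group means. Red points are Treg or CD25+ cells and blue points Teff or CD25- cells. The means of Socs2 differ between the sorts by 3.83 in set 1, 3.69 in mesenteric and 3.94 in peripheral nodes, and Socs3 (162206_f_at) spans 7.84 to 8.58 in mesenteric arrays, against 6.64 to 7.59 in peripheral arrays.

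Socs2, which is best known for restraining growth hormone signalling, showed the widest separation of the 4 genes. In set 1 its level was 9.08, 9.21 and 9.11 in Treg cells, against 5.33, 5.60, 5.15, 5.23 and 5.18 in Teff cells. All 3 Treg arrays lay above all 5 Teff arrays with a gap of 3.48, and 8.53% of all probe sets had no overlap in this direction. The means were 9.13 ± 0.07 in Treg (SD, n = 3) and 5.30 ± 0.18 in Teff cells (SD, n = 5), a difference of 3.83 (SE 0.11, 14.3-fold, adjusted p = 1.07e-07). Socs2 ranked 1 by p among the 12422 probe sets and 2 by size of difference. Within the runs of consecutive array numbers, the closest thing to a batch in the labels, the difference was 3.62, 4.06 and 3.90. Differences within runs, here and below, rest on only 1 to 3 arrays a side. Whether a lower value reflected fewer expressing cells or less RNA per cell cannot be told apart in sorted bulk samples.

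The same separation was present in both lymph node sites. In mesenteric nodes Socs2 was 9.19, 8.99, 9.06, 7.87 and 8.64 in CD25+ cells, against 5.18, 5.28 and 4.71 in CD25- cells. In peripheral nodes it was 8.84, 8.75 and 8.84 in CD25+ cells, against 4.97, 4.88 and 4.77 in CD25- cells. Replicate 4 of the mesenteric CD25+ cells was the lowest CD25+ array of either site and still lay 2.59 above the highest CD25- array of its site. The share of all probe sets without overlap upwards was 12.1% in mesenteric and 9.63% in peripheral nodes. The difference was 3.69 in mesenteric (SE 0.24, 12.9-fold, adjusted p = 8e-07) and 3.94 in peripheral nodes (SE 0.26, 15.3-fold, adjusted p = 2.2e-06). Without mesenteric CD25+ replicate 2, the array with conflicting labels, the mesenteric difference was 3.63. The difference between sites in this contrast was -0.25 (95% interval -1.01 to 0.51, adjusted p = 1.00), in a test that 0.00805% of all probe sets passed, and between pancreas set 1 and the mean of both nodes it was 0.11 (95% interval -0.45 to 0.67, adjusted p = 0.893).

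In mice given anti-ICOS, Socs2 was 8.63, 9.72 and 6.07 in Treg cells, against 6.31, 5.26 and 5.25 in Teff cells. Replicates 1 and 2 of the Treg cells lay above all Teff arrays, and the library labelled Treg replicate 3 lay below Teff replicate 1 and above the others. Teff replicate 1 itself stood above the other Teff arrays, also for Cish (6.94, against 6.30 and 6.43) and the granzyme gene Gzmb (7.25, against 5.38 and 4.75). The difference over all arrays was 2.53 (SE 0.80, 95% interval 0.69 to 4.37, adjusted p = 1.00). Without the library labelled Treg replicate 3 it was 3.56 with an adjusted p of 0.0398, and 12 probe sets passed in place of 0. With the replicate number as a block the difference stayed 2.53 (adjusted p = 0.741), and with the array run as a block it was 3.54 (adjusted p = 0.063). No Teff array shared a run with the library labelled Treg replicate 3, so the run block also left that library out of this difference. In the library labelled replicate 3, Klrg1, a lectin receptor of Treg and other differentiated T cells, was at 5.50 and Il2ra at 3.88, against 3.68 to 3.82 for Il2ra in anti-ICOS Teff cells.

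The IgG Treg cells of set 2 had a Socs2 level of 9.34 and 9.35. Against these, anti-ICOS Treg cells had 1 array above, 1 below by less than 1 log2 unit and the library labelled replicate 3 far below. The difference of anti-ICOS minus IgG Treg cells was -1.20 (95% interval -3.26 to 0.85, adjusted p = 0.893), and it was -0.17 without the library labelled replicate 3 and -1.21 without IgG Treg replicate 1. Set 2 held no IgG Teff cells, so the Treg to Teff contrast of IgG cells was taken from set 1. The contrast of the anti-ICOS cells minus that of the set 1 IgG cells was -1.49 (95% interval -3.28 to 0.29, adjusted p = 1.00), and -0.48 without that library. The Treg sorts also differed in gate, since CD69- was required in the IgG cells only, so gate and antibody cannot be told apart, nor can array set in the difference of contrasts.

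**Figure D2:**
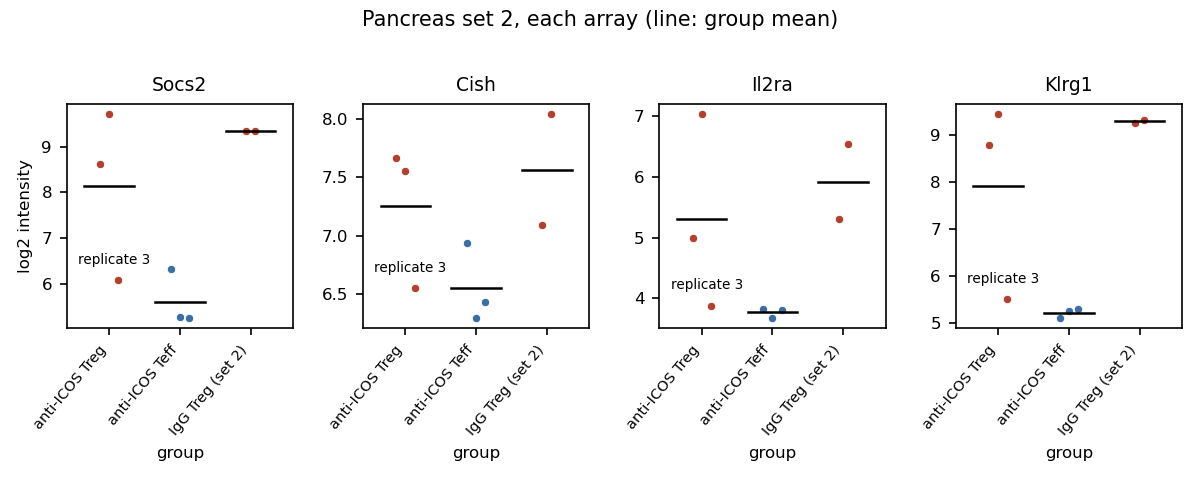
Log2 intensity of Socs2, Cish, Il2ra and Klrg1 in each array of pancreas set 2 (points), with lines at group means and the library labelled anti-ICOS Treg replicate 3 marked. That library has Socs2 at 6.07, Cish at 6.55, Il2ra at 3.88 and Klrg1 at 5.50, close to the Teff arrays in all 4 panels.

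Cish encodes CIS, which binds activated interleukin 2 receptor chains and, in mouse CD8 T cells, also dampens T cell receptor signalling. In set 1 it was 7.79, 8.20 and 7.90 in Treg cells, against 6.56, 6.53, 6.21, 6.65 and 6.63 in Teff cells. The 2 groups did not overlap, as upwards for 8.53% of all probe sets, and Teff replicate 3 was the lowest array by a clear step. The means were 7.96 ± 0.21 in Treg (SD, n = 3) and 6.52 ± 0.18 in Teff cells (SD, n = 5), a difference of 1.44 (SE 0.13, 2.72-fold, adjusted p = 0.000168). Within array runs it was 1.24, 1.98 and 1.26.

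In mesenteric nodes Cish was 6.75, 6.91, 7.01, 6.89 and 7.14 in CD25+ cells, against 6.04, 5.87 and 6.14 in CD25- cells. In peripheral nodes it was 6.40, 6.83 and 7.14 in CD25+ cells, against 6.09, 5.76 and 5.84 in CD25- cells. CD25+ arrays lay above CD25- arrays in both sites, by the narrowest margin in peripheral CD25+ replicate 1. Such separation upwards was found for 12.1% of all probe sets in mesenteric and 9.63% in peripheral nodes. The difference was 0.92 in mesenteric (SE 0.14, 1.90-fold, adjusted p = 0.00121) and 0.89 in peripheral nodes (SE 0.16, 1.86-fold, adjusted p = 0.00405). Within array runs it was 0.87 and 0.88 in mesenteric and 0.65 and 1.38 in peripheral nodes, the 1.38 from 1 array of each sort. With the 3′ to 5′ actin ratio, a measure of RNA integrity and amplification, as a covariate, the peripheral difference was 0.94 with an adjusted p of 0.0599. That ratio (log2) was 2.76 to 3.30 in peripheral CD25+ cells, against 2.32 to 2.70 in CD25- cells.

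The Cish contrast of pancreas set 1 exceeded the mean of the node contrasts by 0.62 (SE 0.18, 95% interval 0.24 to 1.00), with an adjusted p of 0.0915, so it did not pass. It passed in 1 of 22 fits without 1 array, that without peripheral CD25+ replicate 3 (0.69, adjusted p = 0.0478). Adjusted p over these fits reached 0.251. With all arrays, 2.08% of all probe sets passed this test in either direction. Tissue, antibody treatment, gate and array set differ together between these samples and cannot be told apart.

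Under anti-ICOS, Cish was 7.66, 7.55 and 6.55 in Treg cells, against 6.94, 6.30 and 6.43 in Teff cells. The library labelled Treg replicate 3 lay among the Teff arrays here as well, and the other Treg arrays lay above them. The difference was 0.70 (95% interval -0.12 to 1.52, adjusted p = 1.00), and 1.05 without that library (adjusted p = 0.488). IgG Treg cells of set 2 had 7.09 and 8.04, a wider spread than for Socs2, and anti-ICOS minus IgG gave -0.31 (95% interval -1.23 to 0.61, adjusted p = 0.897). This difference turned to 0.041 without the library labelled Treg replicate 3 (adjusted p = 0.997), and it was -0.79 without IgG Treg replicate 1.

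Socs1, which inhibits JAK kinases directly and is required to contain interferon gamma signalling in mice, differed less. In set 1 it was 5.73, 6.03 and 6.27 in Treg cells, against 5.34, 5.32, 5.32, 5.72 and 5.60 in Teff cells. The lowest Treg array exceeded the highest Teff array by only 0.02, and 8.53% of all probe sets had no overlap in this direction. The difference was 0.55 (SE 0.14, 1.46-fold, adjusted p = 0.0452), and it was 0.40, 0.71 and 0.61 within array runs. It no longer passed in 6 of the 8 fits that left out 1 array, where adjusted p ranged from 0.0189 to 0.137, nor with the actin ratio as a covariate (0.74, adjusted p = 0.241). That ratio was 3.02 to 4.53 in set 1 Treg cells, against 2.38 to 3.11 in Teff cells. The arrays whose removal ended the call were Treg replicates 2 and 3 (adjusted p = 0.137 and 0.115) and Teff replicates 1, 2, 3 and 5 (adjusted p = 0.0882, 0.0967, 0.0920 and 0.0792).

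In mesenteric nodes Socs1 was 6.27, 6.02, 6.34, 6.14 and 5.89 in CD25+ cells, against 5.36, 4.88 and 5.53 in CD25- cells. In peripheral nodes it was 5.35, 5.68 and 5.74 in CD25+ cells, against 5.08, 5.02 and 5.35 in CD25- cells. The mesenteric groups were clearly apart, as upwards for 12.1% of all probe sets, while peripheral CD25+ replicate 1 and CD25- replicate 3 were level to 2 decimals. The difference was 0.87 in mesenteric nodes (SE 0.15, 1.83-fold, adjusted p = 0.00241) and 0.44 in peripheral nodes (SE 0.17, 95% interval 0.08 to 0.80, adjusted p = 0.146). The 2 contrasts differed by 0.43 (SE 0.23, 95% interval -0.06 to 0.92, adjusted p = 1.00), so a difference between sites was not shown.

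Among CD25+ cells, all 5 mesenteric arrays had more Socs1 than all 3 peripheral arrays, with a difference of 0.54 (SE 0.15, adjusted p = 0.677). Groups without overlap in this direction were found for 1.32% of all probe sets. Under anti-ICOS Socs1 was 5.77, 5.91 and 5.78 in Treg cells, against 5.83, 5.49 and 5.55 in Teff cells, a difference of 0.20 (95% interval -0.18 to 0.57, adjusted p = 1.00), and 0.22 without the library labelled Treg replicate 3. The groups overlapped, and the library labelled Treg replicate 3 did not stand apart for Socs1. IgG Treg cells of set 2 had 5.73 and 6.18, and the anti-ICOS Treg arrays all lay between these values.

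**Figure D3:**
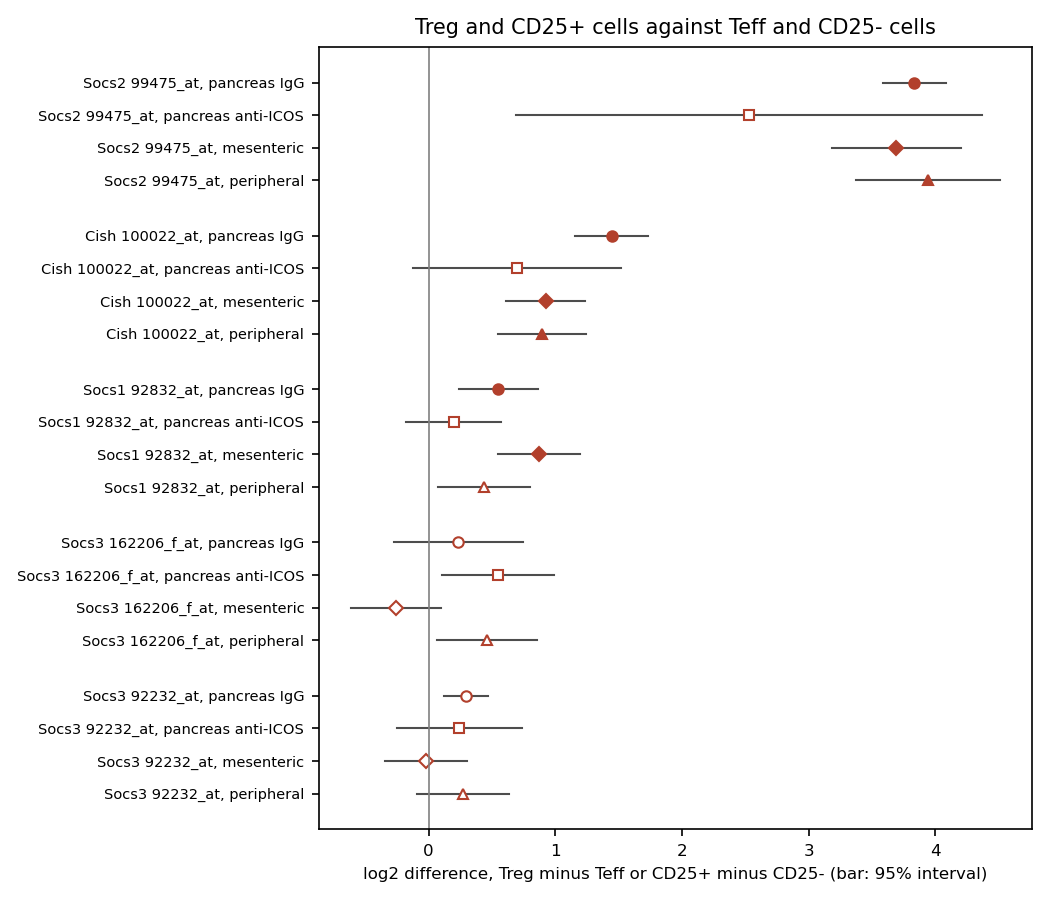
Log2 difference of Treg minus Teff cells (pancreas, IgG and anti-ICOS) or CD25+ minus CD25- cells (mesenteric and peripheral nodes) for each SOCS family probe set, with 95% intervals as bars. Filled symbols passed the test at an adjusted p under 0.05: Socs2 and Cish in 3 of 4 contrasts each, Socs1 in 2 and Socs3 in none.

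No contrast of Treg with Teff or of CD25+ with CD25- cells passed the test for Socs3. In set 1 it was 7.27, 7.09 and 7.60 in Treg cells, against 6.54, 6.70, 7.56, 7.31 and 7.31 in Teff cells. The groups overlapped, with Teff replicates 1 and 2 below all others. The difference was 0.24 (95% interval -0.27 to 0.75, adjusted p = 0.635). Within array runs it was 0.65, -0.47 and 0.29, so its sign changed by run, though the -0.47 came from 1 array of each sort. The second probe set, 92232_at, was 5.93, 5.83 and 5.90 in Treg cells, against 5.57, 5.51, 5.56, 5.60 and 5.70 in Teff cells. Its groups did not overlap, as upwards for 8.53% of all probe sets, and the difference was 0.30 (SE 0.08, adjusted p = 0.0552).

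Under anti-ICOS, Socs3 was 7.50, 7.68 and 7.66 in Treg cells, against 7.23, 6.82 and 7.13 in Teff cells. The groups did not overlap, as for 3.11% of all probe sets, and the library labelled Treg replicate 3 lay with the other Treg arrays. The difference was 0.55 (SE 0.19, 95% interval 0.11 to 0.99, adjusted p = 1.00), and 0.53 without that library. IgG Treg cells of set 2 had 6.78 and 7.41, both below the anti-ICOS Treg arrays, and the difference of 0.52 (95% interval 0.02 to 1.01) had an adjusted p of 0.893. It was 0.49 without the library labelled Treg replicate 3 and 0.20 without IgG Treg replicate 1. Groups fully apart upwards between these sorts were found for 4.85% of all probe sets. On 92232_at the anti-ICOS values were 6.03, 5.55 and 5.75 in Treg cells, against 5.93, 5.52 and 5.16 in Teff cells, and 5.61 and 5.80 in IgG Treg cells, so these groups overlapped.

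Socs3 differed by the site of the node. Mesenteric CD25- cells had 8.49, 8.58 and 8.17, against 6.80, 6.86 and 6.64 in peripheral CD25- cells. The lowest mesenteric array lay 1.31 above the highest peripheral array, and 4.43% of all probe sets were without overlap upwards. The means were 8.41 ± 0.22 in mesenteric and 6.76 ± 0.11 in peripheral CD25- cells (SD, n = 3 each), a difference of 1.65 (SE 0.18, 3.14-fold, adjusted p = 0.000642). It was 1.82 and 1.31 within array runs, the 1.31 from 1 array of each site. The difference was between 1.57 and 1.77 in all 14 fits without 1 array, and 1.66 with the actin ratio as a covariate (adjusted p = 0.00139).

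In CD25+ cells Socs3 was 8.47, 8.31, 8.14, 7.84 and 8.04 in mesenteric nodes, against 7.21, 6.88 and 7.59 in peripheral nodes. The 2 sites did not overlap, as upwards for 1.32% of all probe sets, and peripheral replicate 3 came closest to the mesenteric arrays. The difference was 0.93 (SE 0.16, 1.91-fold) with an adjusted p of 0.0713, in a test that 9 probe sets or 0.0725% of all passed in either direction. Within array runs it was 1.34 and 0.42. Over the 14 fits without 1 array the difference ran from 0.76 to 1.11 and adjusted p from 0.0171 to 0.314, and 2 fits passed. Those were the fits without peripheral CD25+ replicate 3 (1.11, adjusted p = 0.0171) and without mesenteric CD25+ replicate 4 (1.01, adjusted p = 0.0335).

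The second Socs3 probe set moved the same way. On 92232_at, mesenteric CD25- cells had 6.12, 6.33 and 5.97, against 5.53, 5.16 and 5.08 in peripheral CD25- cells. Mesenteric CD25+ cells had 6.03, 6.03, 6.32, 6.04 and 6.17, against 5.35, 5.29 and 5.93 in peripheral CD25+ cells. The sites were fully apart in both sorts, as upwards for 4.43% of all probe sets in CD25- and 1.32% in CD25+ cells. The difference was 0.88 in CD25- cells (SE 0.17, adjusted p = 0.0305) and 0.59 in CD25+ cells (SE 0.15, adjusted p = 0.481). The CD25- call was lost in 8 of 14 fits without 1 array, where adjusted p ranged from 0.00553 to 0.200, with the replicate block (adjusted p = 0.116) and with the actin ratio (adjusted p = 0.0547). It was lost without replicate 1, 2 or 3 of the mesenteric CD25- cells (0.132, 0.200 and 0.0528), without replicate 2 or 3 of the peripheral CD25- cells (0.191 and 0.181) and without replicate 1, 2 or 5 of the mesenteric CD25+ cells (0.0509, 0.0509 and 0.0541). In CD25+ cells the test on 92232_at passed in 1 of 14 fits without 1 array, that without peripheral CD25+ replicate 3 (0.79, adjusted p = 0.0332). Adjusted p over these fits reached 0.9996.

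Within a node site, Socs3 gave smaller values by sort. The difference of CD25+ minus CD25- cells was -0.26 in mesenteric (95% interval -0.61 to 0.10, adjusted p = 0.387) and 0.46 in peripheral nodes (95% interval 0.07 to 0.86, adjusted p = 0.160). The difference between these contrasts was -0.72 (SE 0.25, 95% interval -1.25 to -0.19, adjusted p = 1.00). In peripheral nodes the CD25+ arrays lay above the CD25- arrays by at least 0.03, and 9.63% of all probe sets had no overlap in this direction. On 92232_at the values were -0.02 in mesenteric (95% interval -0.34 to 0.30) and 0.27 in peripheral nodes (95% interval -0.09 to 0.63).

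**Figure D4:**
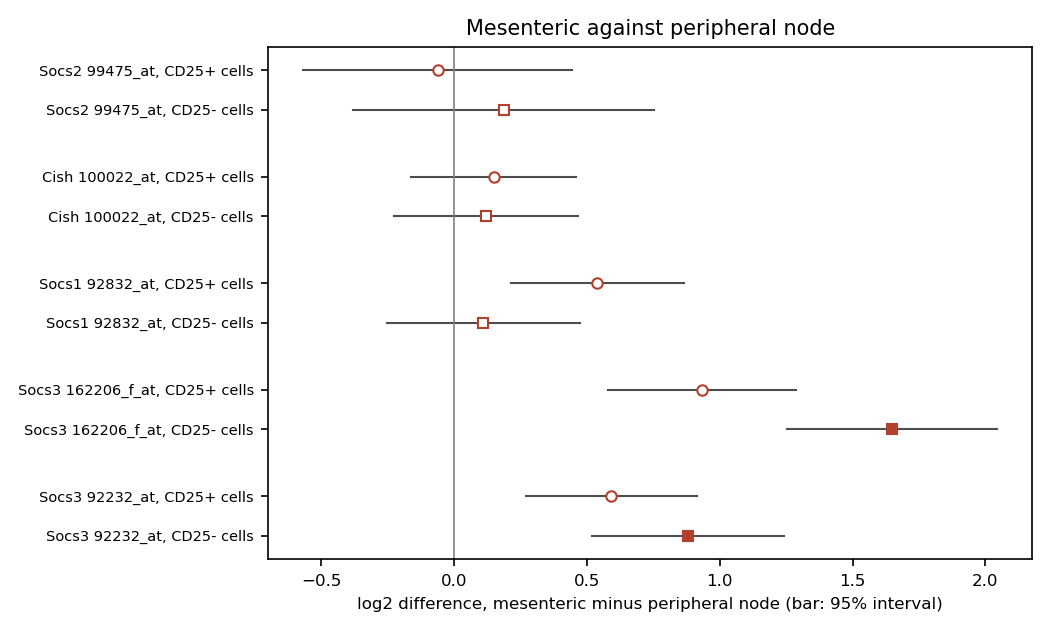
Log2 difference of mesenteric minus peripheral node for each SOCS family probe set, in CD25+ cells (circles) and CD25- cells (squares), with 95% intervals as bars. Filled symbols passed at an adjusted p under 0.05, which both Socs3 probe sets did in CD25- cells, by 1.65 and 0.88.

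The other members gave smaller site differences. Socs2 differed by -0.06 in CD25+ cells (95% interval -0.57 to 0.44) and by 0.19 in CD25- cells (95% interval -0.38 to 0.75). Cish differed by 0.15 in CD25+ cells (95% interval -0.16 to 0.46) and by 0.12 in CD25- cells (95% interval -0.23 to 0.47). Socs1 differed by 0.11 in CD25- cells (95% interval -0.25 to 0.47), with overlapping arrays. In order of level within the lymph node set, Socs2 and Cish thus placed both CD25+ groups above both CD25- groups, with neighbouring groups of 1 sort overlapping. Socs3 placed both mesenteric groups above both peripheral groups, and the 2 mesenteric groups overlapped.

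The genes that act before and after the SOCS proteins were read from lists of the JAK-STAT pathway. Of 9 measured JAK and STAT genes, none was higher and 1 was lower in set 1 Treg cells, namely Jak2, a kinase of several cytokine receptors, at -0.55 (adjusted p = 0.0478). In CD25+ cells Jak2 fell by 0.62 in mesenteric and by 1.00 in peripheral nodes, and Stat4, which carries interleukin 12 signals, fell by 0.61 in mesenteric and fell by 1.17 in peripheral nodes. Over all probe sets, 2.76% fell in set 1 Treg cells, 7.53% in mesenteric and 5.89% in peripheral CD25+ cells. In set 1 Treg cells, where 3.93% of all probe sets rose, 3 of 21 measured receptor genes did. These were Il2ra by 2.00, part of the gate, Ifngr1, the ligand-binding chain for interferon gamma, by 0.82 and Il12rb1, a chain of the interleukin 12 receptor, by 0.69. The 2 that fell were Il6st, which encodes gp130, at -1.15 and Il6ra, the interleukin 6 receptor, at -0.61. The median difference in set 1 was -0.029 for the JAK and STAT genes and 0.054 for the receptors, beside 0.030 over all probe sets.

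Receptors of the node cells moved partly otherwise. Over all probe sets, 4.66% rose and 7.53% fell in mesenteric CD25+ cells, and 1.8% rose and 5.89% fell in peripheral CD25+ cells. In mesenteric CD25+ cells 4 of 21 rose and none fell, with Il2ra at 1.57, Il6ra at 0.98, Ifngr1 at 0.51 and Il2rb, a signalling chain for interleukin 2, at 0.31. In peripheral CD25+ cells Il2ra (1.35), Il6ra (1.09), Il10rb (0.73), a chain of the interleukin 10 receptor, and Ifngr1 (0.59) rose, while Il6st fell (-0.90). The Il6ra contrast differed between pancreas set 1 and the nodes by -1.66 (adjusted p = 0.00253). Of 14 measured ligand genes only Il10, an anti-inflammatory cytokine, rose in set 1 Treg cells (2.30), where 3.93% of all probe sets did. None of the 14 passed in either node.

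Other genes induced through the same STATs gave mixed counts. Over all probe sets, 3.93% rose and 2.76% fell in set 1 Treg cells. The shares that rose and fell were 4.66% and 7.53% in mesenteric and 1.8% and 5.89% in peripheral CD25+ cells. Of 9 measured STAT5-induced genes, Il2ra and the kinase gene Pim1 (1.26) rose and the related Pim2 fell (-0.94) in set 1 Treg cells, with a list median of 0.09 against 0.03 over all probe sets. Pim1 also rose in CD25+ cells of mesenteric (1.32) and peripheral nodes (1.70). Mesenteric CD25+ cells further had Bcl2l1, a survival gene, higher (0.39) and Pim2 lower (-0.56). Of 4 measured STAT3-induced genes, Batf, a factor of activated T cells, rose in set 1 (0.66) and none passed in the nodes. The list medians in mesenteric and peripheral CD25+ cells were 0.39 and 0.24 for STAT5-induced genes, beside 0.041 and 0.054 over all probe sets.

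Among 10 other measured attenuators of the pathway, none rose and 2 fell in set 1 Treg cells, namely Pias2, an inhibitor of activated STATs (-0.42), and Ptprc, the phosphatase CD45 (-0.80). Pias2 also fell in CD25+ cells of mesenteric (-1.16) and peripheral nodes (-0.90). Ptprc fell in mesenteric CD25+ cells too (-0.86), and Pias3, a related inhibitor, rose there (0.48). Falls over all probe sets were 2.76% in set 1 Treg cells, 7.53% in mesenteric and 5.89% in peripheral CD25+ cells. The matching rises were 3.93%, 4.66% and 1.8%. Of the other SOCS box genes Socs4, Socs5, Socs6 and Socs7, 1 had a probe set, Socs5, and it passed no test. Between node sites, Usp18, which removes ISG15 and inhibits the type I interferon receptor, was higher in mesenteric than in peripheral cells, by 2.02 in CD25+ cells (adjusted p = 0.0334) and by 2.91 in CD25- cells (adjusted p = 0.00136). Usp18 was the only one of the 10 attenuators to pass there, where 0.0564% of all probe sets rose in CD25+ cells and 0.209% in CD25- cells.

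The genes whose pattern was most like each member were ranked by Pearson correlation over 29 arrays, each gene centred within its set, among 8251 genes. These arrays share the sorts and sets, so the values describe likeness and carry no test. Nearest to Socs2 were Klrg1 (0.973), the semaphorin receptor Nrp1 (0.962), the TNF receptors Tnfrsf4 (0.947) and Tnfrsf18 (0.940), and Mdfic (0.936). Nearest to Cish were Tnfrsf4 (0.946), the granzyme gene Gzmb (0.943), AU020206 (0.930), the protease gene Ctsw (0.927) and the sterol isomerase gene Ebp (0.919). Socs1 lay nearest to Antkmt (0.868), Smdt1 (0.847), BC004004 (0.846), Tmem176a (0.818) and Itm2c (0.817). Among the members, Socs2 and Cish had 0.908, Socs1 and Cish 0.771, Socs1 and Socs2 0.727, while Socs3 had 0.206 with Socs2, 0.244 with Cish and 0.407 with Socs1.

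Nearest to Socs3 were 4 genes known to be induced by interferon, Usp18 (0.850), Ifit1 (0.832), Mx1 (0.805) and Irf9 (0.802), and Crybg1 (0.814). Ifit1, which binds foreign RNA ends, was higher in mesenteric than in peripheral nodes by 2.53 in CD25+ cells (adjusted p = 0.00272) and by 3.15 in CD25- cells (adjusted p = 0.000154). The antiviral GTPase gene Mx1 was higher by 1.62 in CD25+ cells (adjusted p = 0.0400) and by 2.00 in CD25- cells (adjusted p = 0.00504). Irf9, an interferon regulatory factor, gave 0.35 and 0.58, and Crybg1 gave 0.29 and 0.72, none of which passed. Peripheral CD25+ replicate 3, the peripheral array with the highest Socs3, was also the highest peripheral CD25+ array for Usp18 (7.40, against 6.35 and 5.65 in the others) and for Ifit1 (5.84, against 4.49 and 4.46). That array was highest of its group for Klrg1 (8.34) and Gzmb (8.52) as well. In each other lymph node group, different arrays had the highest Socs3 and the highest Usp18. In peripheral CD25- cells, replicate 3 had the lowest Socs3 (6.64) and the highest Usp18 (6.42).

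**Figure D5:**
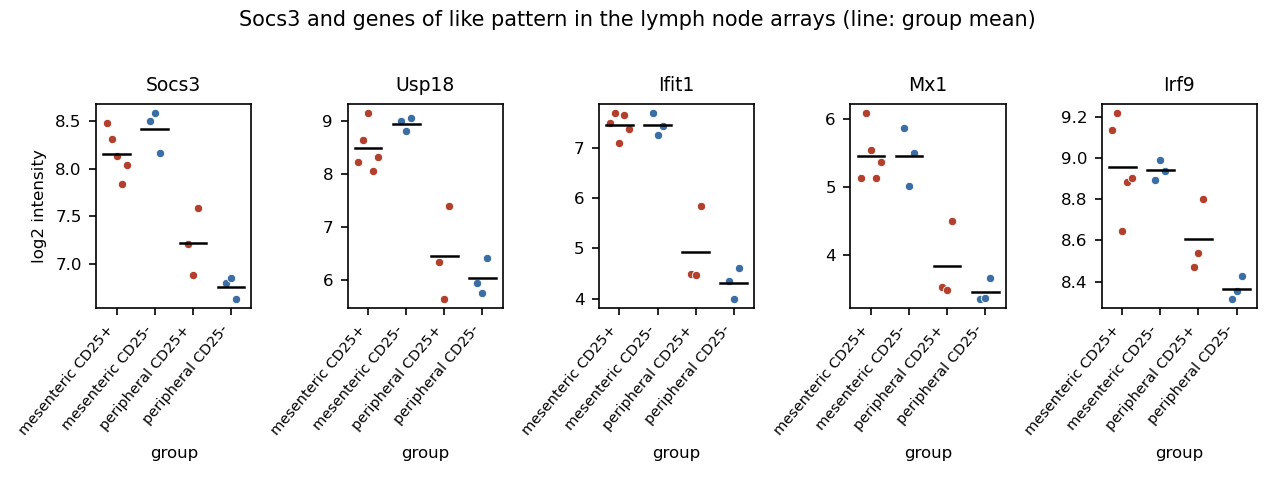
Log2 intensity of Socs3 (162206_f_at) and of Usp18, Ifit1, Mx1 and Irf9, 4 of the 5 genes of most similar pattern, in each lymph node array (points), with lines at group means; red is CD25+ and blue CD25-. Mesenteric arrays lie above peripheral arrays for Socs3, Usp18, Ifit1 and Mx1 in both sorts, and peripheral CD25+ replicate 3 is the highest peripheral point in each panel.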

How the data were processed

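Sorted CD4+ T cells of 30 samples were measured on MG-U74Av2 arrays. The authors deposited 1 linear intensity per probe set and array. Per the submitters' processing notes, RMA was used for the 22 arrays of pancreas set 2 and the lymph node set; for pancreas set 1 no method is given in the sources used here. The deposited intensities were converted to log2, which set 1, set 2 and the lymph node set kept unchanged. Fits across sets were quantile-normalized together and left out the IgG Treg arrays of set 2, so array 2298 entered them only as its set 1 record. For the correlations of pattern, both records of array 2298 were averaged and counted 1 time.

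Of 12488 probe sets, 66 Affymetrix controls were left out and 12422 tested, 10833 of them with 1 gene symbol, 396 with several and 1193 with none. Lymph node arrays listed these controls in a different order (r = 0.254 with set 1 as stored, 0.952 reordered) and were reordered for the actin ratio. Each set was fitted with all its groups in limma 3.58.1 (R 4.3.3, lmFit and eBayes, two-sided, Benjamini-Hochberg); the scripts were tested on simulated data. SE and 95% intervals come from these fits, and the number of arrays limits the precision.

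The text names every probe set of the 4 genes, of each pathway list at most 5 members past the threshold per comparison, and the 5 genes most like each member. Members and lists were chosen with earlier results of these data known. The result of 1 pathway list is not reported here. Alternatives were trend and robust options, a filter on dim probe sets, other normalizations, the array run, replicate number and actin ratio as terms, and leaving out each array. Replicate numbers entered as a block only as an alternative, and whether they pair samples was not settled. Deviations from the group means of same-numbered anti-ICOS Treg and Teff arrays correlated at 0.589, 0.283 and 0.237, while same-numbered lymph node arrays reached 0.508. Anti-ICOS Treg and Teff arrays of replicate 2, and those of replicate 3, also fell in different array runs.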

Additional observations from a re-analysis of the deposited data

Results flagged for a closer look

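Cish in set 1 IgG Teff cells had 1 array far from the others. Replicate 3 was at 6.21, against 6.53 to 6.65 in the other 4 arrays, and its gap to the nearest array was 0.733 of the whole range of the group. Among 10 such checks over the groups of 5 arrays, this was the only one past the critical value for 5 samples, and chance passes about 1 in 20 groups. Without this array the Treg minus Teff difference of Cish was 1.37 (adjusted p = 0.000231), against 1.44 with it.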

How the results depend on the processing

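Over all members, comparisons and alternatives, 1037 values kept their direction and side of the threshold (or, for counts, stayed within 1.5 times), 18 lost the threshold, 5 gained it, 32 turned sign and 30 counts moved further. The rises of Socs2 in set 1 and both nodes, of Cish in set 1 and mesenteric nodes, of Socs1 in mesenteric nodes and of Socs3 in mesenteric over peripheral CD25- cells passed under every alternative run. The actin ratio as a covariate ended the calls of Socs1 in set 1 (0.74) and of Cish in peripheral nodes (0.94), turned the set 1 minus node contrast of Socs1 to 0.0465, and left 86 probe sets past the threshold in set 1 (831 without it), 267 in peripheral nodes (955), 5 between CD25+ sites (9) and 56 in the set 1 minus node contrast (258). With the array run as a block, 15 probe sets were called for anti-ICOS Treg minus Teff (0 without it). The library labelled Treg replicate 3 dropped out of that difference. The run block turned the CD25+ site difference of Socs2 to 0.0208. For anti-ICOS minus IgG Treg, the only run with both groups had 1 array of each. These were the library labelled Treg replicate 3 and IgG Treg replicate 2, so Socs3 on 92232_at turned to -0.0514. For the site difference of the CD25 contrast (1 call), limma's trend and robust options gave 2 calls and the filter on dim probe sets 0, and Cish turned to -0.0173 with the run block and to -0.0200 with quantile normalization. Other than where the run block left arrays out, the cause of these changes was not tested.

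In the lymph node set the deviations of same-numbered samples correlated at -0.0033 to 0.508, and whether they were paired was not settled either. There the replicate block gave 832 calls in mesenteric nodes, against 1514 without it, 2 calls in the site difference of the CD25 contrast, 0.27 for Socs2 between CD25+ sites, and -0.0220 for Cish and 0.0824 for Socs2 in the CD25 contrast by site. For anti-ICOS Treg against Teff cells the replicate block left the calls at 0, and it changed no call other than that of 92232_at between CD25- sites.

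Leaving out 1 array at a time gave the following ranges. Socs1 in set 1 was 0.42 to 0.69, and the set 1 calls numbered 450 (without Teff replicate 5) to 1000, with 471 without Treg replicate 2. For anti-ICOS Treg minus Teff, Socs2 was 1.74 to 3.56 and the calls 0 to 12. For anti-ICOS minus IgG Treg, Cish was -0.79 to 0.17, Socs1 -0.36 to 0.10, 92232_at -0.0537 to 0.18, and the calls 0 to 35, the 35 without IgG Treg replicate 2. In mesenteric nodes 92232_at was -0.10 to 0.0751 and the calls 743 to 1878, with 743 and 798 without CD25- replicates 2 and 1. The peripheral calls numbered 531 to 1462, with 1462 and 531 without CD25+ replicates 1 and 2, and 546 and 597 without CD25- replicates 2 and 3. Between CD25+ sites, Cish was -0.0452 to 0.32, Socs2 -0.17 to 0.16, Socs3 0.76 to 1.11, 92232_at 0.48 to 0.79 and the calls 2 to 21, with 5, 2 and 21 without peripheral CD25+ replicates 1, 2 and 3. Between CD25- sites, Socs1 was -0.0258 to 0.30, 92232_at 0.79 to 1.02 and the calls 36 to 68, with 36 without peripheral CD25- replicate 2. In the site difference of the CD25 contrast Cish was -0.16 to 0.20 and the calls 1 to 2, and in the anti-ICOS minus IgG contrast 92232_at was -0.24 to 0.10. In the set 1 minus node contrast, Cish was 0.45 to 0.71, Socs1 -0.21 to 0.0294, Socs2 -0.0041 to 0.20, Socs3 -0.0815 to 0.16 and the calls 160 to 445, with 160 without Teff replicate 5 and 445 without peripheral CD25+ replicate 1.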
